A study of Mus musculus with 13 samples.

Results

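The voltage-gated sodium, voltage-gated calcium and pacemaker (HCN) channel genes were followed in mouse left ventricle after myocardial infarction (MI). They were the gene entries of the deposited count table whose symbols name a sodium channel subunit (Scn followed by a number and a or b), a calcium channel subunit (Cacna, Cacnb, Cacng or Cacna2d) or a pacemaker channel (Hcn followed by a number). This rule found 43 of 36172 gene entries, and it used names only, not measured levels. The entry listed under the symbol Scn2a1 did not match it. The 40 entries described here comprise 8 sodium channel alpha subunits, 3 sodium channel beta subunits, 10 calcium channel alpha1 subunits, 4 alpha2delta subunits, 4 calcium channel beta subunits, 8 gamma subunits and 3 HCN channels. Of these 40, 23 had enough reads for a test and 17 did not.

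All hearts came from C57BL/6JO1aHsd mice aged 8 to 10 weeks at the start, and RNA was taken from left ventricle outside the ischaemic zone. In the MI+FG-3149 group (n = 5), the left anterior descending artery was permanently ligated and the mice received FG-3149, a mouse monoclonal antibody against connective tissue growth factor (CTGF), labelled at 10 mg/kg. In the MI+IgG group (n = 5), the same artery was ligated and the mice received the control antibody, labelled mouse anti IgG ab, also at 10 mg/kg. The Sham group (n = 3) had no ligation and no antibody, so a comparison of either infarcted group with Sham spans ligation and antibody together. The time point was labelled 1W+6W, which the labels do not spell out. The 3 comparisons of the groups follow from the design, and both comparisons with Sham share the same 3 Sham libraries.

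Sodium channels open at the start of the action potential and carry the fast inward current that spreads excitation through the heart. Calcium channels open next, and the calcium that enters through the L-type channels triggers contraction. HCN channels open on hyperpolarization, carry the pacemaker current of the sinoatrial node, and are scarce in healthy working ventricle. Pore-forming alpha subunits define each sodium and calcium channel, and beta, alpha2delta and gamma subunits are auxiliary proteins that change its trafficking and gating.

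Libraries held 10954922 to 12794823 estimated counts in MI+FG-3149, 13084735 to 17567238 in MI+IgG and 12025880 to 14999813 in Sham, and totals of the infarcted groups did not overlap. The summed level of 10 cardiomyocyte markers was 92412 to 100205 CPM (reads scaled to the library total, with TMM factors) in MI+FG-3149 hearts, 88157 to 96386 in MI+IgG hearts and 102329 to 110540 in Sham hearts, and 5 of the 10 fell in each infarcted group against Sham. The summed level of 10 activated fibroblast markers was 691 to 1066 CPM in MI+FG-3149 hearts, 1057 to 2036 in MI+IgG hearts and 150.1 to 167 in Sham hearts. In bulk tissue, fewer cells of a type and less RNA per cell cannot be told apart. Replicates 4 and 5 of MI+IgG stood apart in atrial markers, with 8.36 and 13.7 CPM of Myl7, the atrial myosin light chain, against at most 0.273 CPM in the other 11 libraries. Reads also followed GC content: first exons with GC of 75% or more took 8.14% ± 1.13 of all first exon counts in MI+FG-3149 hearts, 3.22% ± 0.58 in MI+IgG hearts and 2.99% ± 0.25 in Sham hearts (SD, n = 5, 5 and 3). The MI+FG-3149 and MI+IgG shares did not overlap (exact permutation test, 2-sided p = 0.00794, the smallest that 5 against 5 allows; adjusted p = 0.0952 over 12 exon share tests). Clock genes moved with the groups too: of 14 tested, 5 rose and 4 fell in MI+IgG against Sham, and 3 rose and 3 fell in MI+FG-3149 against Sham. Arntl, which drives the clock, had 2.76 to 18.5 CPM in MI+FG-3149 hearts, 2.46 to 15.7 in MI+IgG hearts and 31.6 to 37.4 in Sham hearts, and Dbp, a clock output gene, had 71.7 to 173 CPM in MI+FG-3149 hearts, 58.7 to 149 in MI+IgG hearts and 11.7 to 17.1 in Sham hearts. The part of the clock in the comparisons with Sham was not tested.

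Levels between genes were compared in the deposited RPKM, which scale reads by transcript length and library total. Of the genes described here, Cacna1c, the pore of the main cardiac L-type calcium channel, stood highest, at 37.9 ± 3.81 RPKM in MI+FG-3149 hearts, 37.9 ± 2.45 RPKM in MI+IgG hearts and 39.1 ± 2.09 RPKM in Sham hearts. Its auxiliary subunits followed, Cacna2d1 with 26.4 ± 0.928 RPKM in MI+FG-3149 hearts, 26.1 ± 2.30 RPKM in MI+IgG hearts and 29.7 ± 2.51 RPKM in Sham hearts, and Cacnb2 with 21.2 ± 1.59 RPKM in MI+FG-3149 hearts, 21.6 ± 1.41 RPKM in MI+IgG hearts and 23.7 ± 1.52 RPKM in Sham hearts. The pore and auxiliary subunits of the ventricular L-type channel thus held the first 3 places among these genes by mean RPKM over the 13 libraries. Scn4b came next, with an overall mean of 12.8 RPKM, and then Scn4a with 6.84 RPKM and Hcn2 with 6.46 RPKM, whose library values overlapped in the RPKM plot. Hcn4, the other HCN gene with enough reads among those described, averaged 2.51 RPKM. Cacna2d3 averaged 0.00035 RPKM although it had 121 counts over all libraries, so its RPKM were not used as a level.

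**Figure D1:**
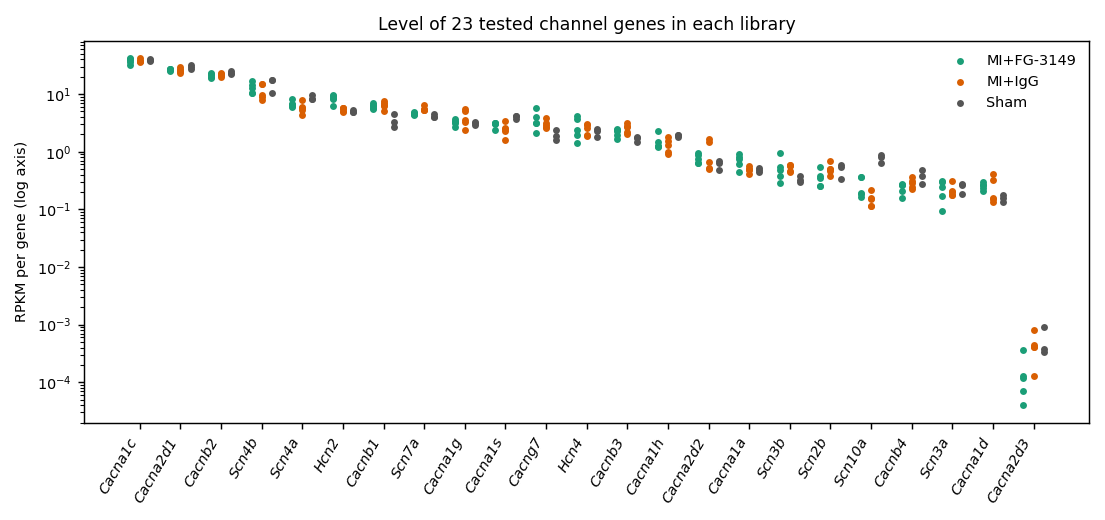
Deposited RPKM per gene (log axis) of 23 tested channel genes, ordered by mean, with 1 point per library for MI+FG-3149 (n = 5), MI+IgG (n = 5) and Sham (n = 3). Cacna1c, Cacna2d1 and Cacnb2 are the 3 highest of the genes plotted, and Cacna2d3 lies far below the rest.

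Genes were called at an adjusted p under 0.05 in edgeR's quasi-likelihood test with Benjamini-Hochberg adjustment over the 13434 genes tested, and every adjusted p below comes from that test unless another is named. Fold changes are log2 with their SE. In MI+IgG against Sham, 3 of the 23 tested channel genes rose (Scn7a, Cacnb1 and Cacnb3) and 4 fell (Scn10a, Scn4a, Cacna1s and Cacna2d1), where 17.8% of all tested genes rose and 15.9% fell. Their median log2 fold change was -0.011, against -0.0011 over all tested genes. In MI+FG-3149 against Sham, 4 rose (Cacnb1, Cacng7, Cacna1a and Hcn2) and 3 fell (Scn10a, Cacna1s and Cacnb4), where 15.6% of all tested genes rose and 13.9% fell. Their median log2 fold change was -0.035, against -0.0015 over all tested genes. In MI+FG-3149 against MI+IgG, Hcn2 alone rose and 0 fell in edgeR and in DESeq2, where 0.916% of all tested genes rose and 0.156% fell. At an unadjusted p under 0.05, 6 of the 23 passed in that comparison, against 1849 of the 13434 tested genes. The library values of 9 of the 23 did not overlap between MI+IgG and Sham, against 35.8% of all tested genes. For MI+FG-3149 and Sham the count was 8, against 32.2%, and for MI+FG-3149 and MI+IgG it was 2 (Hcn2 and Scn7a), against 3.14%. In either direction 30.4% of the 23 were called in each comparison with Sham and 4.35% between the infarcted groups. These shares were not tested against those of all genes.

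**Figure D2:**
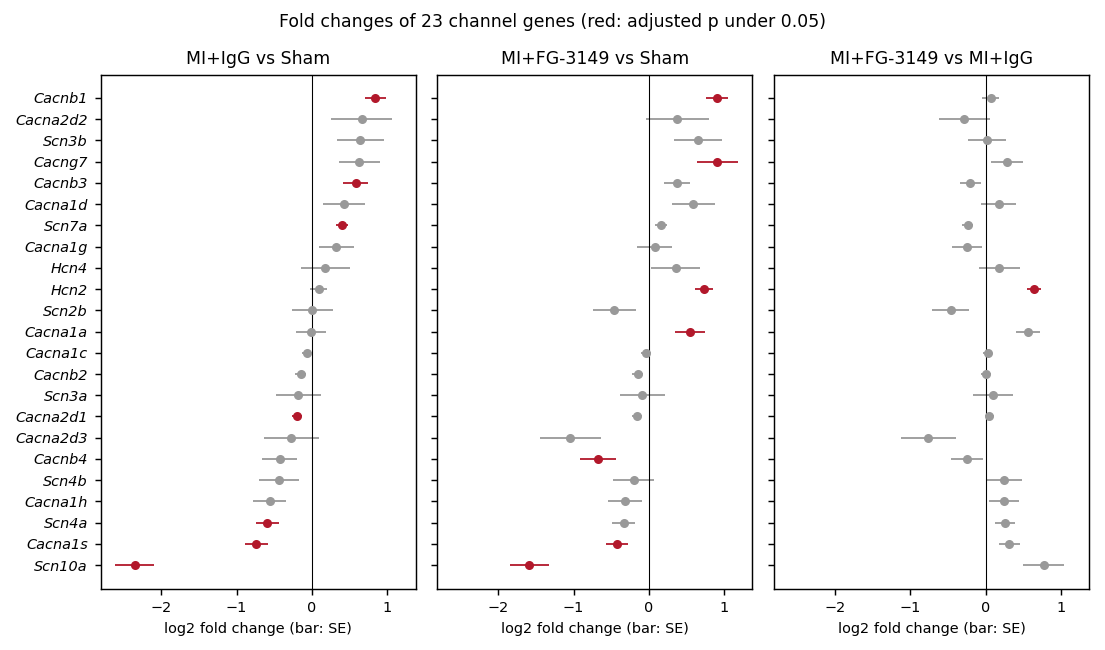
Log2 fold changes with SE (bars) of 23 tested channel genes in the 3 comparisons, on the same axis, with red for an adjusted p under 0.05 and grey otherwise. Scn10a lies furthest left in both comparisons with Sham, Cacnb1 lies furthest right in MI+IgG against Sham, and Hcn2 is the only red point in MI+FG-3149 against MI+IgG.

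Among the 4 tested sodium channel alpha subunits described here, Scn7a rose and Scn10a and Scn4a fell in MI+IgG hearts, and Scn3a did not pass. Scn10a encodes Nav1.8, a channel best known from sensory neurons. It had 2.31, 2.29, 1.27, 1.21 and 1.06 CPM in MI+FG-3149 hearts, 0.726, 1.35, 0.745, 0.942 and 0.998 CPM in MI+IgG hearts and 5.08, 5.62 and 4.06 CPM in Sham hearts. No infarcted library reached the lowest Sham library. It fell in MI+FG-3149 hearts (-1.58 ± 0.25, adjusted p = 0.000193) and in MI+IgG hearts (-2.35 ± 0.26, adjusted p = 3.24e-06), and the infarcted groups did not pass the test between them (0.77 ± 0.27, adjusted p = 0.199). Of the neuronal markers, Th was at 0 in all 13 libraries and Snap25 was at most 0.135 CPM. Uchl1 had 19.2 to 23.5 CPM in MI+FG-3149 hearts, 19.3 to 35.4 in MI+IgG hearts and 7.65 to 8.95 in Sham hearts. Tubb3 had 2.18 to 5.38 CPM in MI+FG-3149 hearts, 3.41 to 7.65 in MI+IgG hearts and 0.556 to 0.828 in Sham hearts. Both rose in MI+FG-3149 (1.38 ± 0.17, adjusted p = 3.82e-05 for Uchl1 and 2.16 ± 0.39, adjusted p = 0.000701 for Tubb3) and in MI+IgG (1.74 ± 0.16, adjusted p = 1.92e-06 and 3.03 ± 0.37, adjusted p = 1.26e-05) against Sham, opposite to Scn10a, and the part of neurons in Scn10a was not tested.

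Scn4a encodes Nav1.4, the main sodium channel of skeletal muscle. It had 44.00, 38.02, 46.5, 41.9 and 56.1 CPM in MI+FG-3149 hearts, 50.4, 36.6, 35.02, 38.5 and 29.02 CPM in MI+IgG hearts and 62.1, 55.2 and 54.00 CPM in Sham hearts. All MI+IgG libraries lay below all Sham libraries, and 1 MI+FG-3149 library overlapped Sham. It fell in MI+IgG hearts (-0.59 ± 0.15, adjusted p = 0.00806) and did not pass in MI+FG-3149 hearts against Sham (-0.33 ± 0.15, adjusted p = 0.112), which passed without MI+FG-3149 replicate 5 (adjusted p = 0.0373) and without MI+IgG replicate 1 (0.0305). The difference between the infarcted groups did not pass (0.26 ± 0.13, adjusted p = 0.421). The summed level of 10 skeletal muscle markers, of which Ckm and Acta1 are also expressed in heart, was 3134 to 4732 CPM in MI+FG-3149 hearts, 2929 to 3654 in MI+IgG hearts and 2430.3 to 2533 in Sham hearts. Ckm and Acta1 made up nearly all of that sum in every library, so it does not measure skeletal muscle RNA. Of 5 tested, Acta1 rose (3.11 ± 0.36, adjusted p = 0.000106) and Mylpf (-1.08 ± 0.34, adjusted p = 0.0189) and Tnni2 (-0.95 ± 0.30, adjusted p = 0.0191) fell in MI+IgG against Sham, while Acta1 rose (3.33 ± 0.36, adjusted p = 0.000123) and Tnni2 fell (-0.95 ± 0.31, adjusted p = 0.0275) in MI+FG-3149 against Sham. Mylpf, a fast muscle myosin light chain, was at most 1.43 CPM in any library, Tnni2, a fast muscle troponin, at most 1.96 CPM, and the myosins Myh4 and Myh1 at most 0.225 and 0.916 CPM. The part of skeletal muscle RNA in Scn4a was not tested.

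Scn7a encodes Nax, a sodium-sensing relative of the voltage-gated channels that is found in glia and other non-muscle cells. It had 33.8, 35.04, 35.3, 32.5 and 33.9 CPM in MI+FG-3149 hearts, 37.7, 47.2, 38.7, 37.2 and 41.2 CPM in MI+IgG hearts and 33.4, 29.4 and 29.1 CPM in Sham hearts. Every MI+IgG library stood above every MI+FG-3149 and every Sham library. Scn7a rose in MI+IgG hearts against Sham (0.40 ± 0.08, adjusted p = 0.000814). Against MI+IgG the MI+FG-3149 value missed the threshold (-0.24 ± 0.068, adjusted p = 0.0998), as it did against Sham (0.16 ± 0.081, adjusted p = 0.152), where it passed with the GC trend removed (0.31, adjusted p = 0.00942). The summed level of 10 Schwann cell and neuron markers was 31.3 to 39.0 CPM in MI+FG-3149 hearts, 31.9 to 59.7 in MI+IgG hearts and 21.1 to 26.8 in Sham hearts. Of 7 tested, 3 rose and 2 fell in MI+IgG hearts, and 2 rose and 2 fell in MI+FG-3149 hearts against Sham. The Schwann cell factor Sox10 was at most 0.766 CPM. Fibroblast markers rose too, 9 of 10 in MI+IgG hearts and 9 of 10 in MI+FG-3149 hearts against Sham. The part of either cell type in Scn7a was not tested. Scn3a, a channel of neurons, ranged over 0.909 to 3.08 CPM in MI+FG-3149 hearts, 1.67 to 2.89 in MI+IgG hearts and 1.74 to 2.71 in Sham hearts and passed no test.

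The sodium channel beta subunits are membrane proteins with an immunoglobulin fold that modulate the alpha subunits and take part in cell adhesion. Scn2b, Scn3b and Scn4b passed no test. Scn4b, a beta subunit linked to resurgent current, had 61.1, 43.9, 46.6, 54.2 and 73.1 CPM in MI+FG-3149 hearts, 63.1, 33.3, 37.3, 61.4 and 41.6 CPM in MI+IgG hearts and 43.1, 75.9 and 72.8 CPM in Sham hearts. Its groups overlapped widely, with differences of -0.20 ± 0.27, adjusted p = 0.621 for MI+FG-3149 against Sham and -0.44 ± 0.27, adjusted p = 0.24 for MI+IgG against Sham.

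Scn3b, a beta subunit that modulates sodium current in heterologous cells, had 1.20, 1.98, 4.001, 1.58 and 2.28 CPM in MI+FG-3149 hearts, 1.89, 2.36, 1.83, 2.36 and 2.46 CPM in MI+IgG hearts and 1.59, 1.35 and 1.24 CPM in Sham hearts. All MI+IgG libraries lay above all Sham libraries, while MI+FG-3149 replicate 1 lay below the Sham range and replicate 4 within it. Scn3b did not pass in MI+FG-3149 hearts (0.65 ± 0.32, adjusted p = 0.128) or MI+IgG hearts (0.64 ± 0.31, adjusted p = 0.12) against Sham. It passed against Sham for MI+FG-3149 without MI+FG-3149 replicate 1 (adjusted p = 0.0497) and for MI+IgG without MI+FG-3149 replicate 3 (adjusted p = 0.0486), which shares in the estimate of the spread. Scn2b, which forms a disulfide bond with alpha subunits, had 1.62, 2.44, 1.18, 1.77 and 1.14 CPM in MI+FG-3149 hearts, 2.25, 2.08, 1.72, 2.24 and 3.15 CPM in MI+IgG hearts and 2.46, 2.78 and 1.49 CPM in Sham hearts. Its groups overlapped, and the comparisons with Sham gave -0.46 ± 0.28, adjusted p = 0.233 for MI+FG-3149 and 0.0025 ± 0.27, adjusted p = 0.995 for MI+IgG.

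**Figure D3:**
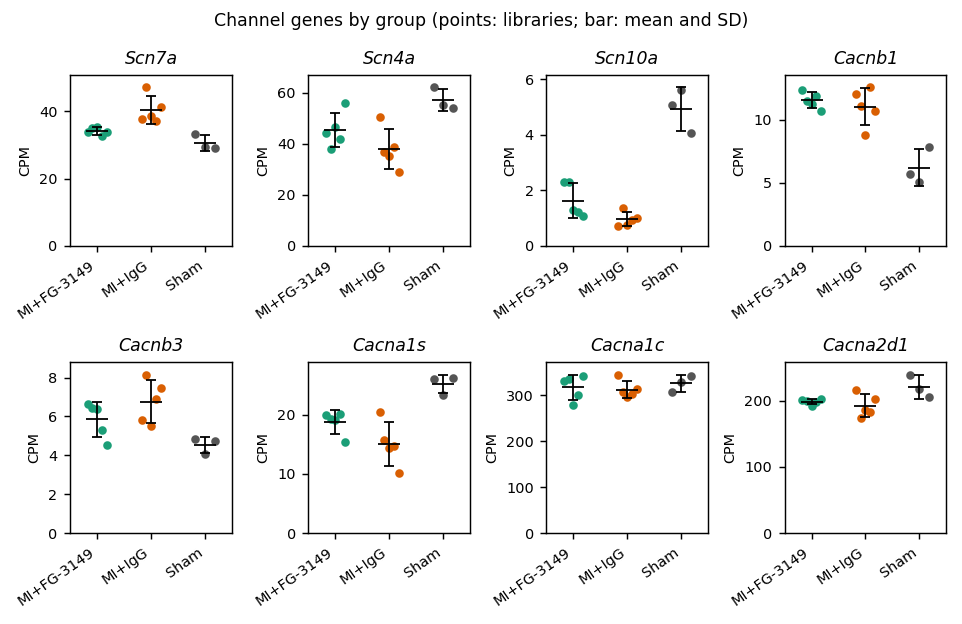
TMM-scaled CPM of 8 sodium and calcium channel genes in each library (points) of MI+FG-3149 (n = 5), MI+IgG (n = 5) and Sham (n = 3), with the group mean and SD (bars). Cacnb1 is higher in both infarcted groups than in Sham, Scn10a is lower, Scn7a is highest in MI+IgG, and Cacna1c overlaps in all 3 groups.

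The L-type calcium channel pore was at like levels in the 3 groups, and the genes called among the calcium channels were the pores Cacna1s and Cacna1a and auxiliary subunits. Cacna1c (Cav1.2) had 332, 337, 279, 300.0 and 342 CPM in MI+FG-3149 hearts, 344, 307, 295, 303 and 313 CPM in MI+IgG hearts and 306, 329 and 342 CPM in Sham hearts. The groups overlapped fully. Its log2 fold change was -0.035 ± 0.069, adjusted p = 0.734 in MI+FG-3149 and -0.061 ± 0.068, adjusted p = 0.525 in MI+IgG against Sham.

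Cacna1c (minus strand of chromosome 6, mm10) has pairs of alternative coding exons. The exons of 1 pair are 84 bases long, encode part of the third transmembrane segment of the fourth domain and differ at 35 positions, shown in capitals (5′ to 3′ on the transcribed strand, from the GENCODE transcripts). They are printed because the reads of each exon tell the forms apart.
upstream exon, chr6:118638427-118638510, minus strand: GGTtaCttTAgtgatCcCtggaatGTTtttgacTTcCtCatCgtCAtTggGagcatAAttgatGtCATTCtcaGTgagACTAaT
downstream exon, chr6:118637730-118637813, minus strand: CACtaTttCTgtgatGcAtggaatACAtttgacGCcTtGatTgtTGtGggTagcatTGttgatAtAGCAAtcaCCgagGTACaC
The upstream exon held 8.03 to 14.7 counts per library in MI+FG-3149 hearts, 8.76 to 13.6 in MI+IgG hearts and 8.78 to 13.998 in Sham hearts. The downstream exon held 22.7 to 33.4 counts in MI+FG-3149 hearts, 29.4 to 46.97 in MI+IgG hearts and 34.9 to 41.4 in Sham hearts. The upstream exon thus took 27.8% ± 5.83 of the counts of both in MI+FG-3149 hearts, 23.9% ± 2.55 in MI+IgG hearts and 22.8% ± 2.74 in Sham hearts (SD, n = 5, 5 and 3). The shares overlapped, and exact permutation tests (2-sided) gave p = 0.179 for MI+FG-3149 against Sham, p = 0.607 for MI+IgG against Sham and p = 0.23 for MI+FG-3149 against MI+IgG (adjusted p of 0.553 to 0.662 over 12 exon share tests). Of the alternative 60-base exons, the upstream one took 30.99% ± 10.5 in MI+FG-3149 hearts, 35.2% ± 6.64 in MI+IgG hearts and 31.5% ± 13.5 in Sham hearts, and of the alternative 104-base exons the upstream one held at least 94.9% of the counts in every library. None of these Cacna1c shares passed a test at these counts. The distal first exon (chr6:119196093-119196409) held 82.6 to 142 counts in MI+FG-3149 hearts, 106 to 164 in MI+IgG hearts and 92.5 to 114 in Sham hearts, against at most 3.14 for the proximal first exon in any library.

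Cacna1s encodes Cav1.1, the L-type pore of skeletal muscle. It had 19.99, 19.2, 19.2, 20.2 and 15.4 CPM in MI+FG-3149 hearts, 20.5, 15.8, 14.4, 14.8 and 10.1 CPM in MI+IgG hearts and 26.1, 23.4 and 26.3 CPM in Sham hearts. All infarcted libraries lay below all Sham libraries. It fell in MI+IgG hearts (-0.74 ± 0.15, adjusted p = 0.00126) and in MI+FG-3149 hearts (-0.43 ± 0.15, adjusted p = 0.042), but the call in MI+FG-3149 was lost without any 1 of the 5 MI+FG-3149 libraries, the 3 Sham libraries or MI+IgG replicates 2, 3 or 4 (adjusted p of 0.0519 to 0.125). The MI+FG-3149 call was also lost with no filter on low counts and by limma on RPKM with either pseudocount. The difference between the infarcted groups did not pass (0.31 ± 0.13, adjusted p = 0.317) but did without MI+IgG replicate 1 (0.44, adjusted p = 0.0435). The skeletal muscle markers given with Scn4a apply here too.

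Cacna1g and Cacna1h encode the T-type channels Cav3.1 and Cav3.2, which open at low voltages and are known from pacemaker and conduction cells. Cacna1g had 26.1, 27.8, 27.8, 22.2 and 30.6 CPM in MI+FG-3149 hearts, 26.3, 29.3, 19.5, 39.6 and 45.6 CPM in MI+IgG hearts and 25.9, 27.1 and 23.6 CPM in Sham hearts. MI+IgG replicates 4 and 5, the libraries with atrial transcripts, were the highest of all 13. Cacna1g passed no test, with 0.075 ± 0.23, adjusted p = 0.842 in MI+FG-3149 and 0.32 ± 0.23, adjusted p = 0.315 in MI+IgG against Sham, where it gave -0.035 (adjusted p = 0.874) without replicates 4 and 5. Cacna1h had 9.91, 18.3, 10.9, 12.1 and 10.6 CPM in MI+FG-3149 hearts, 10.4, 7.88, 7.51, 14.4 and 12.4 CPM in MI+IgG hearts and 15.7, 14.96 and 15.7 CPM in Sham hearts. All MI+IgG libraries lay below all Sham libraries, and MI+FG-3149 replicate 2 lay above them. It missed the threshold in MI+IgG hearts against Sham (-0.56 ± 0.22, adjusted p = 0.0682) and passed without MI+IgG replicate 4 (adjusted p = 0.0190), without MI+FG-3149 replicate 2 (0.0206), without MI+IgG replicates 4 and 5 together (-0.86, 0.00563), with the GC trend removed (0.0371), over exons under 65% GC (0.0155) and in DESeq2 (0.0293). In MI+FG-3149 against Sham it gave -0.32 ± 0.23, adjusted p = 0.311.

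Cacna1d (Cav1.3), the L-type pore known from the sinoatrial node and atria, had 3.25, 3.51, 2.73, 3.16 and 2.28 CPM in MI+FG-3149 hearts, 1.96, 1.69, 2.06, 3.42 and 4.30 CPM in MI+IgG hearts and 2.07, 1.90 and 1.99 CPM in Sham hearts. Every MI+FG-3149 library lay above every Sham library, and MI+IgG replicates 4 and 5 lay above the other 3 of their group. Cacna1d did not pass in MI+FG-3149 hearts (0.59 ± 0.29, adjusted p = 0.128) or MI+IgG hearts (0.42 ± 0.28, adjusted p = 0.265) against Sham, where MI+IgG gave -0.061 without replicates 4 and 5, and passed in MI+FG-3149 hearts without MI+IgG replicates 4 and 5 together (0.60, adjusted p = 0.0425). Cacna1a (Cav2.1), the P/Q-type pore of nerve terminals, had 6.32, 5.73, 3.64, 7.25 and 4.80 CPM in MI+FG-3149 hearts, 4.35, 3.71, 3.84, 3.06 and 3.92 CPM in MI+IgG hearts and 3.50, 4.13 and 3.73 CPM in Sham hearts. The library values of MI+FG-3149 and Sham overlapped through replicate 3 of MI+FG-3149. Cacna1a rose in MI+FG-3149 hearts against Sham (0.55 ± 0.19, adjusted p = 0.0413) and gave 0.56 ± 0.16, adjusted p = 0.116 against MI+IgG, which passed without MI+FG-3149 replicate 3 (adjusted p = 0.0449). The call against Sham was lost without any 1 Sham library, without MI+FG-3149 replicates 1, 2 or 4 (adjusted p of 0.0659 to 0.138), with the GC trend removed (0.44, adjusted p = 0.107) and over exons under 65% GC (0.39, adjusted p = 0.169). That call was also lost with the replicate block and by limma on RPKM with either pseudocount.

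The calcium channel beta subunits are cytoplasmic proteins that bring alpha1 subunits to the membrane. Cacnb2, the main cardiac one, had 76.7, 71.8, 84.8, 86.00 and 90.1 CPM in MI+FG-3149 hearts, 81.3, 73.4, 86.3, 85.4 and 81.8 CPM in MI+IgG hearts and 95.97, 86.2 and 89.9 CPM in Sham hearts. Infarcted libraries lay mostly below Sham, with overlap, at -0.15 ± 0.072, adjusted p = 0.132 for MI+FG-3149 and -0.15 ± 0.072, adjusted p = 0.112 for MI+IgG against Sham. Cacnb1, best known as the skeletal muscle beta subunit, had 12.4, 11.5, 11.3, 11.9 and 10.7 CPM in MI+FG-3149 hearts, 12.05, 11.1, 8.83, 12.6 and 10.7 CPM in MI+IgG hearts and 5.72, 5.08 and 7.87 CPM in Sham hearts. All infarcted libraries lay above all Sham libraries and overlapped each other. It rose in MI+FG-3149 hearts (0.90 ± 0.14, adjusted p = 0.000172) and in MI+IgG hearts (0.84 ± 0.14, adjusted p = 0.000184).

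Cacnb3 had 6.66, 6.41, 6.36, 5.30 and 4.55 CPM in MI+FG-3149 hearts, 5.81, 8.16, 5.50, 6.89 and 7.45 CPM in MI+IgG hearts and 4.85, 4.06 and 4.72 CPM in Sham hearts. All MI+IgG libraries lay above all Sham libraries, and MI+FG-3149 replicate 5 lay within the Sham range. It rose in MI+IgG hearts (0.58 ± 0.16, adjusted p = 0.0109) and did not pass in MI+FG-3149 hearts (0.37 ± 0.17, adjusted p = 0.106). The MI+IgG call was lost without Sham replicate 2 (0.50, adjusted p = 0.0666) and over exons under 65% GC (0.54, adjusted p = 0.135). Those exons held 39.7% of the Cacnb3 exon counts, and the rest lay in exons without a matched GC value. Cacnb4, a beta subunit of brain, had 2.22, 1.60, 1.27, 2.14 and 2.11 CPM in MI+FG-3149 hearts, 2.25, 1.74, 1.95, 2.36 and 2.92 CPM in MI+IgG hearts and 3.81, 2.23 and 2.98 CPM in Sham hearts. All MI+FG-3149 libraries lay below all Sham libraries, the nearest by a small margin. It fell in MI+FG-3149 hearts (-0.68 ± 0.24, adjusted p = 0.0417), a call lost without Sham replicates 1 or 3, MI+IgG replicate 4 or MI+FG-3149 replicates 2 or 3 (adjusted p of 0.0522 to 0.234) and with the GC trend removed (0.119), and it gave -0.43 ± 0.23, adjusted p = 0.164 in MI+IgG hearts. The MI+FG-3149 call was also lost with only MI+FG-3149 and Sham in the fit and by limma on RPKM with either pseudocount.

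The alpha2delta subunits are extracellular proteins that raise calcium channel density. Cacna2d1, the main one in ventricle, had 200.1, 199, 192, 198 and 202 CPM in MI+FG-3149 hearts, 216, 173, 186, 182 and 202 CPM in MI+IgG hearts and 239, 218 and 205 CPM in Sham hearts. MI+FG-3149 libraries lay just below Sham, and MI+IgG overlapped it through replicate 1. It fell in MI+IgG hearts (-0.20 ± 0.066, adjusted p = 0.0256), a call lost without Sham replicates 1 or 2 or MI+IgG replicates 2, 3 or 4 (adjusted p of 0.0527 to 0.179) or without MI+IgG replicates 4 and 5 together (0.0572), and missed in MI+FG-3149 hearts (-0.15 ± 0.067, adjusted p = 0.0892), where it passed over exons under 65% GC (-0.19, adjusted p = 0.0433). The MI+IgG call was also lost with only MI+IgG and Sham in the fit and by limma on RPKM with either pseudocount. Cacna2d2 had 3.59, 3.97, 5.001, 3.53 and 5.36 CPM in MI+FG-3149 hearts, 2.76, 3.60, 2.87, 7.83 and 9.37 CPM in MI+IgG hearts and 3.73, 3.52 and 2.65 CPM in Sham hearts. MI+IgG replicates 4 and 5 were again the highest of all, and no comparison passed. In MI+IgG against Sham it gave 0.66 ± 0.40, adjusted p = 0.231, and -0.10 (adjusted p = 0.768) without those libraries. Cacna2d3 ranged over 0.256 to 0.731 CPM in MI+FG-3149 hearts, 0.394 to 1.07 in MI+IgG hearts and 0.745 to 1.24 in Sham hearts, with -1.04 ± 0.41, adjusted p = 0.062 in MI+FG-3149 against Sham, which passed without MI+FG-3149 replicate 5 (adjusted p = 0.0331) or MI+IgG replicate 2 (0.0499).

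Gamma subunits span the membrane, and several of them traffic AMPA receptors in brain. Cacng7 was the 1 of 8 with enough reads, and had 3.33, 2.60, 1.82, 4.74 and 2.68 CPM in MI+FG-3149 hearts, 3.12, 2.42, 2.18, 2.18 and 2.61 CPM in MI+IgG hearts and 1.51, 1.35 and 1.99 CPM in Sham hearts. Every MI+IgG library lay above every Sham library, and MI+FG-3149 overlapped Sham through replicate 3. It rose in MI+FG-3149 hearts (0.91 ± 0.27, adjusted p = 0.0186), a call lost without Sham replicates 1 or 2 (adjusted p = 0.0704 and 0.0909), and missed in MI+IgG hearts (0.63 ± 0.27, adjusted p = 0.084), where it passed without MI+FG-3149 replicate 4 (0.0486). The MI+FG-3149 call was also lost with the replicate block. The other 7 gamma genes were low or at 0, with Cacng2 and Cacng3 listed at 0 in all 13 libraries.

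The 17 channel genes without enough reads never exceeded 1.49 CPM, and 13 of the 40 had under 30 counts over all libraries. Among the 17 were the neuronal sodium channels Scn1a, Scn8a, Scn9a and Scn11a, the neuronal calcium channel pores Cacna1b and Cacna1e, and Hcn3. Cacng6, a gamma subunit known from striated muscle, was the highest of them and had 0.256, 0.458, 0.546, 0.279 and 0.0813 CPM in MI+FG-3149 hearts, 0.218, 0.0563, 0.229, 0.412 and 0.230 CPM in MI+IgG hearts and 0.874, 1.49 and 0.663 CPM in Sham hearts. Its infarcted libraries all lay below its Sham libraries. In the fit without a filter on low counts it fell in MI+FG-3149 hearts (-1.64, adjusted p = 0.0173) and in MI+IgG hearts (-2.12, adjusted p = 0.00198), and Cacna2d4 fell in MI+IgG hearts (adjusted p = 0.0179) on 11 counts in all.

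Hcn2 was the 1 channel gene described here that passed the test between the infarcted groups. HCN2 is the main HCN isoform of working ventricle. It had 19.99, 25.7, 30.6, 30.8 and 27.6 CPM in MI+FG-3149 hearts, 16.1, 18.3, 18.2, 17.7 and 15.6 CPM in MI+IgG hearts and 15.7, 17.5 and 15.4 CPM in Sham hearts. Every MI+FG-3149 library lay above every MI+IgG and every Sham library, while MI+IgG overlapped Sham. Hcn2 rose in MI+FG-3149 hearts against MI+IgG (0.64 ± 0.098, adjusted p = 0.00288) and against Sham (0.73 ± 0.12, adjusted p = 0.000204), and gave 0.088 ± 0.12, adjusted p = 0.6 in MI+IgG against Sham. The gene lies at chr10:79716634-79736108 (plus strand, mm10), and its transcript has a GC content of 65.4%.

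The Hcn2 difference was uneven along the transcript. The last exon (70.9% GC) held 8.22 ± 2.03 CPM of reads in MI+FG-3149 hearts, 3.66 ± 0.625 in MI+IgG hearts and 3.38 ± 0.371 in Sham hearts. The first exon (78.0% GC) held 1.15 ± 0.373 CPM in MI+FG-3149 hearts, 0.262 ± 0.109 in MI+IgG hearts and 0.200 ± 0.117 in Sham hearts. The second exon (53.1% GC) held 5.02 ± 0.882 CPM in MI+FG-3149 hearts, 3.91 ± 0.368 in MI+IgG hearts and 3.62 ± 0.599 in Sham hearts (SD, n = 5, 5 and 3). The mean of MI+FG-3149 divided by that of MI+IgG was 4.39 in the first exon and 2.25 in the last, the exons richest in GC, and 1.14 to 1.57 in the other 6. Over all genes the median log2 fold change of MI+FG-3149 against MI+IgG was 0.11 at transcript GC over 60% (632 genes) and -0.069 under 40% (566 genes). With the GC trend of each library removed, the Hcn2 difference between MI+FG-3149 and MI+IgG was 0.42 (adjusted p = 0.0446), and counted over exons under 65% GC, which held 71.9% of its exon counts, it was 0.39 (adjusted p = 0.0807). Against Sham the MI+FG-3149 value was 0.35 with the trend removed (adjusted p = 0.0267) and 0.44 over those exons (adjusted p = 0.00984).

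**Figure D4:**
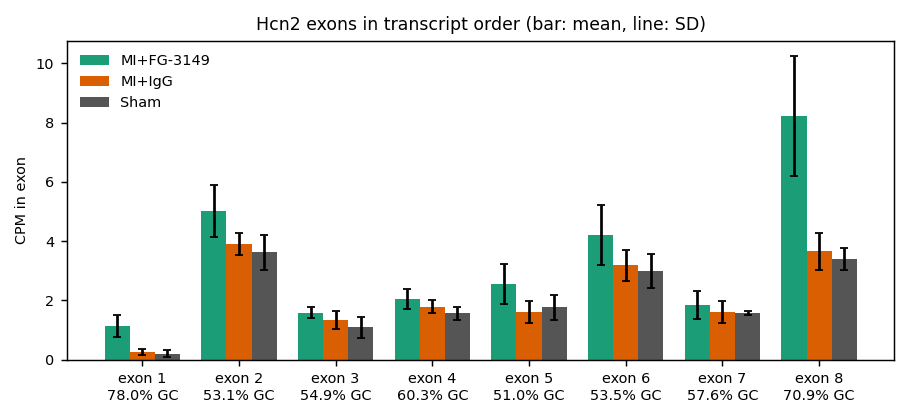
Reads scaled to library total (CPM) in each of the 8 Hcn2 exons, in transcript order with their GC content, as mean (bars, from 0) and SD (lines) of MI+FG-3149 (n = 5), MI+IgG (n = 5) and Sham (n = 3). The difference in CPM between MI+FG-3149 and the other groups is widest in the last exon (70.9% GC), and the ratio is widest in the first (78.0% GC), where counts are lowest.

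Hcn4, the main pacemaker channel of the sinoatrial node, had 7.43, 8.78, 14.7, 5.58 and 16.1 CPM in MI+FG-3149 hearts, 6.97, 7.26, 9.91, 11.3 and 11.2 CPM in MI+IgG hearts and 9.45, 6.84 and 8.53 CPM in Sham hearts. The groups overlapped, with 0.35 ± 0.33, adjusted p = 0.446 in MI+FG-3149 and 0.18 ± 0.32, adjusted p = 0.708 in MI+IgG against Sham. Replicates 3 and 5 of MI+FG-3149 and replicates 4 and 5 of MI+IgG held the highest values of their groups for Hcn4. In MI+IgG replicates 4 and 5 the atrial Myl4 and the conduction gene Cntn2 were also high, at 21.5 and 30.6 CPM of Myl4 and 21.1 and 28.9 CPM of Cntn2. In MI+FG-3149 replicates 3 and 5 the values were 1.91 and 2.93 CPM of Myl4, 0.273 and 0 CPM of Myl7 and 7.27 and 17.2 CPM of Cntn2, which was highest of its group in replicate 5. Without MI+IgG replicates 4 and 5, Hcn4 gave -0.030 in MI+IgG against Sham (adjusted p = 0.962). The summed level of 10 atrial markers was 2009 to 3737 CPM in MI+FG-3149 hearts, 2214 to 4757 in MI+IgG hearts and 651 to 758 in Sham hearts, and 3 of 5 tested (Nppa, Dkk3 and Clu) rose and 1 (Stard10) fell in each infarcted group against Sham. Nppa, a natriuretic peptide gene that ventricle also expresses under load, made up most of that sum in every infarcted library. The part of atrial or conduction tissue in Hcn4 was not tested. Of the 10 conduction system markers, 6 were tested, 0 rose and 1 fell in MI+IgG against Sham, and 1 rose and 1 fell in MI+FG-3149 against Sham, with Isl1 at most 0.0854 CPM.

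**Figure D5:**
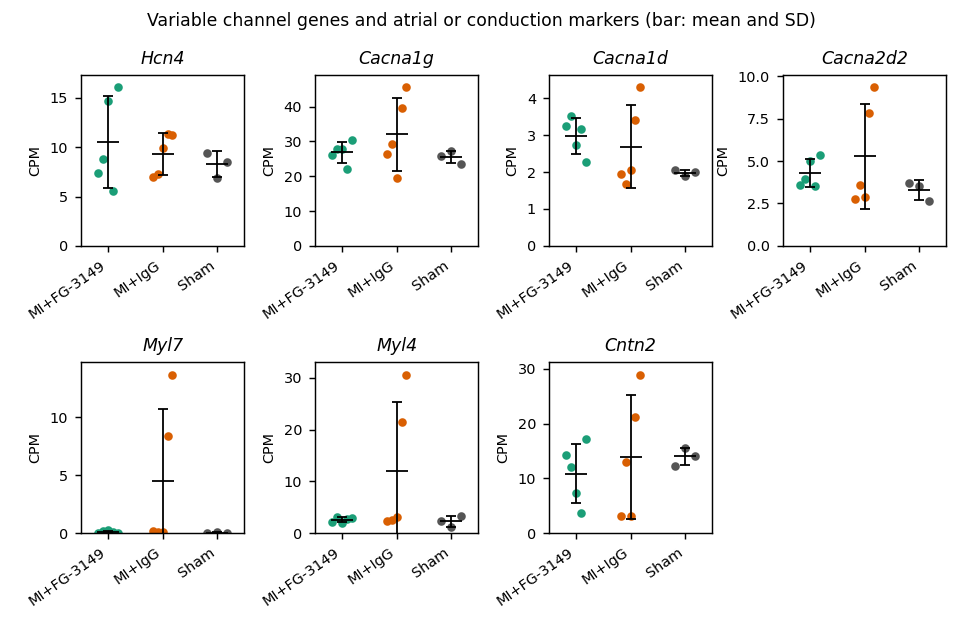
TMM-scaled CPM of Hcn4, Cacna1g, Cacna1d and Cacna2d2, of the atrial markers Myl7 and Myl4 and of the conduction marker Cntn2 in each library (points) of MI+FG-3149 (n = 5), MI+IgG (n = 5) and Sham (n = 3), with mean and SD (bars). The same 2 MI+IgG libraries, replicates 4 and 5, are the highest for Cacna1g, Cacna2d2, Myl7, Myl4 and Cntn2.

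Partner proteins of these channels were read from lists. Of all tested genes, 17.8% rose and 15.9% fell in MI+IgG against Sham, and 15.6% rose and 13.9% fell in MI+FG-3149 against Sham. Between MI+FG-3149 and MI+IgG, 0.916% rose and 0.156% fell. The shares called in the partner and transcription factor lists were not tested against these. Of 17 tested sodium channel partners, 3 rose and 3 fell in MI+IgG and likewise in MI+FG-3149 against Sham, and 0 passed between the infarcted groups in edgeR. Fgf13, an intracellular factor that binds the sodium channel tail, averaged 41.8 ± 1.90 CPM in MI+FG-3149 hearts, 43.4 ± 3.41 CPM in MI+IgG hearts and 61.5 ± 4.47 CPM in Sham hearts and fell in MI+FG-3149 (-0.56 ± 0.07, adjusted p = 2.45e-05) and in MI+IgG (-0.50 ± 0.069, adjusted p = 2.97e-05) against Sham. Camk2d, the kinase that phosphorylates sodium channels and the L-type channel, averaged 182 ± 9.16 CPM in MI+FG-3149 hearts, 173 ± 10.9 CPM in MI+IgG hearts and 223 ± 21.6 CPM in Sham hearts and fell in MI+FG-3149 (-0.30 ± 0.066, adjusted p = 0.00253) and in MI+IgG (-0.37 ± 0.065, adjusted p = 0.000319). Pkp2, a desmosome protein of the intercalated disc, rose in MI+FG-3149 (0.30 ± 0.048, adjusted p = 0.000168) and in MI+IgG (0.23 ± 0.048, adjusted p = 0.000996), as did Trim72, a membrane repair protein, and Ank3, which encodes ankyrin-G, an anchor of sodium channels. Rangrf fell in MI+IgG (-0.26 ± 0.067, adjusted p = 0.00609).

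Of 20 tested calcium channel partners, 4 rose and 4 fell in MI+IgG against Sham, 4 rose and 2 fell in MI+FG-3149 against Sham, and 1 rose between the infarcted groups. Ryr2, the calcium release channel that L-type channels trigger, averaged 2155 ± 166 CPM in MI+FG-3149 hearts, 2071 ± 146 CPM in MI+IgG hearts and 2676 ± 119.8 CPM in Sham hearts and fell in MI+FG-3149 (-0.31 ± 0.068, adjusted p = 0.00233) and in MI+IgG (-0.37 ± 0.068, adjusted p = 0.00043). Bin1, which shapes the T-tubules where L-type channels gather, rose in MI+FG-3149 (0.42 ± 0.10, adjusted p = 0.00477) and in MI+IgG (0.47 ± 0.10, adjusted p = 0.0015), as did Prkar1a, a regulatory subunit of protein kinase A. Akap7, a kinase anchor near L-type channels, fell in MI+FG-3149 (-0.45 ± 0.08, adjusted p = 0.000416) and in MI+IgG (-0.45 ± 0.079, adjusted p = 0.00024). Jph2, which joins T-tubules to the sarcoplasmic reticulum and was singled out after its values were seen, rose in MI+FG-3149 against MI+IgG (0.29 ± 0.044, adjusted p = 0.00251), a call lost with the GC trend removed (0.18, adjusted p = 0.0828) and over exons under 65% GC (-0.016, adjusted p = 0.941).

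Of 8 tested HCN partners, 1 rose (Src, a kinase that phosphorylates HCN channels, 0.52 ± 0.15, adjusted p = 0.0151) and 1 fell (Mrvi1, -0.36 ± 0.092, adjusted p = 0.00497) in MI+IgG, and Mrvi1 fell in MI+FG-3149 (-0.37 ± 0.093, adjusted p = 0.0063). Of 13 tested transcription factors, 3 fell in MI+IgG against Sham (Tbx5, Tbx18 and Mef2a), and 3 rose and 3 fell in MI+FG-3149 against Sham. Tbx5, a T-box factor of the conduction system, averaged 25.98 ± 0.993 CPM in MI+FG-3149 hearts, 24.6 ± 2.90 CPM in MI+IgG hearts and 33.03 ± 1.07 CPM in Sham hearts and fell in MI+FG-3149 (-0.35 ± 0.085, adjusted p = 0.0054) and in MI+IgG (-0.42 ± 0.084, adjusted p = 0.000837). Nkx2-5, a cardiac homeobox factor that was named after its values were seen, averaged 60.9 ± 6.04 CPM in MI+FG-3149 hearts, 37.3 ± 5.61 CPM in MI+IgG hearts and 36.4 ± 1.54 CPM in Sham hearts. It rose in MI+FG-3149 against MI+IgG (0.71 ± 0.091, adjusted p = 0.00166), and with the GC trend removed by 0.44 (adjusted p = 0.00536). Over exons under 65% GC it had no value and could not be tested.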

How the data were processed

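Polyadenylated RNA of 13 left ventricle samples was sequenced from stranded libraries made from 500 ng of total RNA, as single reads of 75 bases on a shared flow cell, per the labels' protocols. Deposited were unnormalized estimated counts for genes and exons, of which 79.4% of nonzero gene values came within 0.01 of an integer, and RPKM for transcripts, which the authors scaled by length and library total. The build was mm10, per the submitters' processing notes. Aligner, counting tool and strand setting are not given in the sources used here, so reads of overlapping genes or near-identical copies may be shared. Groups came from the sample labels, and no label names separate litters, so p-values measure the spread between these samples, taken as animals from the design text.

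Counts were rounded to whole numbers. A total of 379 entries that repeated a symbol were left out. Genes kept by filterByExpr (13434) were scaled by TMM and fitted over all 13 libraries, without covariates, by robust quasi-likelihood in edgeR 4.0.16 (R 4.3.3). Calls required a Benjamini-Hochberg adjusted p under 0.05. The SE is the absolute log2 fold change divided by the square root of F. Exon shares were compared by exact permutation tests (scipy 1.17.1). RPKM were summed over the transcripts of a gene. GC content came from GENCODE transcripts, available for 98.7% of tested genes. The code was checked on simulated data.

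Alternatives were RLE factors, no filter, DESeq2 1.42.0, fits of 2 groups, limma 3.58.1 on log2 of RPKM plus 1 or 0.1, a replicate block and leaving out each library. Removal of the GC trend, exons under 65% GC, omission of MI+IgG replicates 4 and 5 together and the exon shares were added after seeing the data. Values in every library are given for genes called in any comparison and for the main cardiac channels, other members by range, and up to 6 partner genes per list by their p in MI+IgG against Sham. Results of 3 of the 43 channel genes and 1 marker gene, which stayed in the fits, are not reported here. The channel genes, the lists and these rules were chosen with earlier results of these data known.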

Additional observations from a re-analysis of the deposited data

Results flagged for a closer look

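Dixon's test was run on the CPM of the 23 tested channel genes in both groups of 5, which gave 46 sets of values, and in 3 of them 1 library lay far from the other 4. Chance flags about 1 in 20. In the MI+FG-3149 group, Cacna1h stood at 18.3 CPM in replicate 2, against 9.91 to 12.1 CPM in the other 4 libraries. Cacna1s stood at 15.4 CPM in MI+FG-3149 replicate 5, against 19.2 to 20.2 CPM. In the MI+IgG group, Scn3a stood at 2.89 CPM in replicate 4, 1 of the libraries with atrial transcripts, against 1.67 to 1.97 CPM.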

How the results depend on the processing

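Over 23 alternatives, 8 of the 15 calls of channel genes held in each, 7 were lost in at least 1, and 0 turned round. The 8 were Scn10a and Cacnb1 in both comparisons with Sham, Scn4a, Scn7a and Cacna1s in MI+IgG and Hcn2 in MI+FG-3149 against Sham. The number of channel genes higher in MI+IgG than in Sham was 3, but 5 with only those groups in the fit (with Scn3b and Cacng7) and 2 to 4 when libraries were left out in turn. The number higher in MI+FG-3149 than in Sham was 4, but 2 with the replicate block and 2 to 4 when libraries were left out, with 2 without Sham replicate 1 or 2. The number lower in MI+FG-3149 than in Sham was 3, but 1 by limma on RPKM with either pseudocount, 5 with the replicate block and 1 to 4 when libraries were left out in turn. The number higher in MI+FG-3149 than in MI+IgG was 1, with 1 to 2 when libraries were left out and 0 over exons under 65% GC. Among all genes, 144 were called between the infarcted groups, against 278 by DESeq2, 83 with only those groups in the fit, 78 over exons under 65% GC, 70 without MI+IgG replicates 4 and 5, 215 with the replicate block and 68 to 271 when libraries were left out. Partner genes called there were 2 (Jph2 and Nkx2-5), and 1 with the GC trend removed (Nkx2-5). Over exons under 65% GC 1 was called, but neither of these, as Jph2 did not pass (adjusted p = 0.941) and Nkx2-5 had no value. The causes were not tested. Deviations of same-numbered libraries of different groups correlated weakly (11 pairs, correlations of -0.042 to 0.18, with 2 over 0.1). The 2 were MI+IgG with MI+FG-3149, at 0.178 for replicates 1 and 0.133 for replicates 2. Differently numbered pairs of these groups ranged from -0.198 to 0.185. Such weak correlations cannot exclude a pairing or a shared order by number. Arntl was lowest of its group in replicates 4 and 5 of MI+IgG (3.12 and 2.46 CPM) and of MI+FG-3149 (2.98 and 2.76 CPM). With the replicate block, Cacnb2 passed against Sham in MI+FG-3149 (adjusted p = 0.0263) and MI+IgG (0.0204), as did Cacna2d3 (0.0367) in MI+FG-3149, whereas Cacng7 (0.0539) and Cacna1a (0.0786) did not. Fold changes on log2 of RPKM plus a pseudocount understate those of low genes such as Scn10a (-0.62 in MI+IgG with 1 added). Depth limits the 17 low channel genes, the alternative exons of Cacna1c, and genes of a few counts per library such as Cacna2d3.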

Other observations

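Some values fell outside the comparisons. Cacna2d3 had 121 counts over the 13 libraries but a mean of 0.00035 RPKM in the deposited table, whereas Scn2b, with 362 counts, had 0.443 RPKM. The GC-rich first exon of Cacnb1 (chr11:98022342-98022627, 71.7% GC) held 2.68 to 13.5 counts in MI+FG-3149 hearts, 1.05 to 4.26 in MI+IgG hearts and 1.00 to 1.67 in Sham hearts, while the gene as a whole overlapped between the infarcted groups. The homeobox genes Irx3 and Irx5, repressors known from the ventricular conduction system, averaged 39.7 ± 9.15 CPM in MI+FG-3149 hearts, 23.7 ± 5.71 CPM in MI+IgG hearts and 19.1 ± 4.83 CPM in Sham hearts for Irx3, and 14.3 ± 2.60 CPM in MI+FG-3149 hearts, 8.76 ± 2.33 CPM in MI+IgG hearts and 7.49 ± 1.95 CPM in Sham hearts for Irx5. Neither passed between the infarcted groups (adjusted p = 0.152 for Irx3 and 0.0954 for Irx5, edgeR's quasi-likelihood test), and both rose in MI+FG-3149 against Sham (log2 fold change 1.06 and 0.94, adjusted p = 0.0115 and 0.00609). Their values with the GC trend removed or over GC-poor exons were not read out. The part of GC content in these rises was not tested.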
